A study of Mus musculus with 36 samples.

Results

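The interferon regulatory factors (IRFs) are transcription factors that read and amplify interferon signals. The family was followed here through 7 mouse genes, Irf1, Irf2, Irf3, Irf5, Irf7, Irf8 and Irf9, chosen by symbol. All probe sets that carry one of these symbols were taken, 12 of the 22690 on the array, and none of them names a second gene. Irf1, Irf2, Irf7 and Irf9 each have 1 probe set, Irf5 and Irf8 have 2 and Irf3 has 4. Each gene was tested by its leading probe set, the one with the highest mean, and all 7 genes passed the filter on dim probe sets in both cell systems.

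Expression arrays of total RNA covered 36 samples in 18 groups of 2, 24 of primary mouse microglia and 12 of BV-2, an immortalised mouse microglial line. The microglia were wild type (WT), Usp18 ko (KO below) or Usp18_C61A (C61A below). The BV-2 cells received a control siRNA or an siRNA against Usp18. Each kind of cell was left untreated (0 h) or given 500 U/ml IFN-b, a type I interferon, for 6 h or 24 h. Each of the 6 WT titles occurs in 2 runs of the deposition order, called set 1 where the run also holds KO and set 2 where it also holds C61A. The runs are not explained in the labels, so KO was compared with WT of set 1 and C61A with WT of set 2. The labels call the replicates biological and give no ages, and no promoter or cell type is named for the deletion. Values are log2 intensities as deposited, the log base being inferred from their range, and differences are log2 differences with the standard error after the ± sign. Rose and fell are used for genes with an adjusted p under 0.05 (limma, Benjamini-Hochberg over all genes tested). Overlap of arrays between groups was read for the chosen genes only, and its share over all genes was not counted.

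Type I interferon binds a receptor whose kinases activate STAT2, which acts with IRF9 in the complex ISGF3 to switch on interferon-stimulated genes. IRF3 and IRF7 are the factors that, once phosphorylated after sensing of nucleic acids, induce the interferon genes themselves, and IRF7 is itself interferon-induced. IRF1 activates and IRF2 mostly represses overlapping targets, IRF5 drives inflammatory cytokines, and IRF8 sets the identity of myeloid cells, microglia included. USP18, the gene the study perturbs, removes ISG15 from proteins and separately restrains signalling at the type I interferon receptor. The C61A change replaces the cysteine of its protease site.

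Usp18 was read by 1 probe set. It lay at 3.77 and 4.40 on untreated KO arrays and between 5.85 and 6.42 after IFN-b, against 5.68 and 5.99 and then 10.71 to 12.56 in WT of set 1. The sources used here do not say which part was deleted, so the probe set may lie outside it, and for C61A it checks nothing. A lower Usp18 transcript was not shown with the siRNA in BV-2 cells, where it differed from the control by -0.02 at 0 h (adjusted p = 1.00), by -0.29 at 6 h (0.763) and by -0.34 at 24 h (0.632). Of the 14 microglial markers on the array, 11 lay above the array median on every microglia array and 7 on every BV-2 array, where Gpr34 stayed under it throughout. The mean of the 9 astrocyte markers ran from 4.41 to 5.67 in KO and WT of set 1 and from 5.65 to 9.04 in C61A and WT of set 2, so it moved with the set. The earlier account of these data doubted 3 arrays, and results that turn on them are given with and without them. They are untreated WT replicate 1 of set 2, C61A 6 h replicate 2, and BV-2 Usp18 siRNA 6 h replicate 2. On the last of these the mean of the microglial markers was 9.64, against 6.87 to 7.91 on the other BV-2 arrays. The astrocyte marker mean was 6.96 on the first, against 5.65 and 5.68 on the later WT arrays of that replicate. On the second it was 5.89, against 7.13 and 6.65 on the other C61A arrays of that replicate. Differences between replicates correlated at 0.56 between the groups of the first and second array. Within WT of set 2 they correlated at 0.19 to 0.36, and within C61A at 0.32 to 0.53. The labels were kept, and an exchange of them was not tested.

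Because several of the genes moved together, their promoters are shown first, from RefSeq windows of GRCm38.p6 that reach from 250 bases before to 50 bases after a start. All 7 genes had at least 1 window and 10 windows in all were searched on both strands. The letters searched were GAAANNGAAA, the core of the interferon-stimulated response element that ISGF3 and IRFs bind, and TTCNNNGAA, the gamma-activated site that STAT dimers bind. Of 32851 windows of the same length, 3.44% hold the first and 8.3% the second. The stretches below hold the matches, in capitals, of Irf1, Irf2 and Irf8, and the 100 bases just before the start of Irf7, which moved most. Positions count back from the start.
Irf1, chr11:53769878-53769977, plus strand: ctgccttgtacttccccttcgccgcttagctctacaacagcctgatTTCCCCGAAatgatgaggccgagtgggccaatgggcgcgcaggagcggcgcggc
Irf2, chr8:46739495-46739594, plus strand: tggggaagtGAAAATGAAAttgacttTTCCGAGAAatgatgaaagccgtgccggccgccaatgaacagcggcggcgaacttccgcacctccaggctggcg
Irf8, chr8:120736150-120736249, plus strand: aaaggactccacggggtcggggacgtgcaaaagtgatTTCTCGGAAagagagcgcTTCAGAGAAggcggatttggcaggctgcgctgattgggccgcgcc
Irf7, chr7:141266425-141266524, minus strand: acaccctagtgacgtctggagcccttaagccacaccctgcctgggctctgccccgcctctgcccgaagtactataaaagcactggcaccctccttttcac

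The Irf1 stretch holds 1 gamma-activated site letter match, at -90 to -82, in the first of its 2 windows. The Irf2 stretch holds a response element core at -241 to -232 and a gamma-activated site match at -224 to -216. The Irf8 stretch holds 2 gamma-activated site matches, at -171 to -163 and -153 to -145. The windows of Irf3, Irf5, Irf7 and Irf9 hold neither run of letters. A match is only a description of the sequence, and binding was not measured.

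Wild-type microglia given IFN-b for 6 h raised 5 of the 7 genes, Irf1, Irf2, Irf5, Irf7 and Irf9, and none fell. Of all 7960 genes tested 7.59% rose. None of the 5 passed with set 2 arrays alone (adjusted p = 0.997 for each) or with no set term. In those fits 0 of 7440 and 35 of 7960 genes passed in all. The median change of the 7 genes was 0.96 and that of all genes -0.12. Irf7 moved most, by 4.17 ± 0.76 (adjusted p = 0.00482) over the mean of both sets.

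Irf9, the DNA-binding subunit of ISGF3, went in set 1 from 7.28 and 7.71 untreated to 8.59 and 8.83 at 6 h and 8.63 and 8.80 at 24 h. In set 2 it read 8.77 and 7.40 untreated, 9.06 and 8.50 at 6 h, and 8.93 and 8.94 at 24 h. The untreated arrays of set 1 lay clear below all their treated ones, whereas in set 2 the doubted untreated replicate 1 lay above 1 of the 6 h arrays. Over both sets the rise at 6 h was 0.96 ± 0.29 (adjusted p = 0.0387). The 6 h call was lost in 12 of the 24 fits that left out 1 array. At 24 h the difference was 1.04 ± 0.29 (adjusted p = 0.0738), and it passed with the culture as a replicate block (adjusted p = 0.00598).

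Irf7, the amplifier of the interferon response, went in set 1 from 6.55 and 6.39 to 12.48 and 12.82 at 6 h and 12.53 and 12.74 at 24 h. In set 2 it read 10.66 and 5.90 untreated, 10.70 and 10.19 at 6 h, and 10.53 and 10.69 at 24 h. In set 1 the untreated and treated arrays were far apart, and in set 2 the doubted untreated array stood as high as the treated ones. The rise held at 24 h, at 4.25 ± 0.76 (adjusted p = 0.00954). Irf7 was the only one of the 7 genes to pass at 24 h, where 2.02% of all genes rose. On set 1 arrays alone 5 of the 7 passed at 24 h, with Irf7 higher by 6.16 (adjusted p = 2.9e-07). The 2.02% is from the fit of both sets. At 6 h set 1 alone passed more of all genes, 1851 of 7528 against 1226 of 7960. Without the doubted arrays Irf7 was higher by 5.44 at 24 h.

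Irf1, an activator that itself is induced within hours of interferon, went in set 1 from 8.38 and 8.30 to 10.79 and 11.17 at 6 h and back to 9.73 and 9.95 at 24 h. In set 2 it read 10.34 and 7.92 untreated, 10.11 and 10.06 at 6 h, and 9.65 and 9.79 at 24 h. Its 3 times were separate in set 1, with 6 h highest. In set 2 both 6 h arrays also lay above both 24 h arrays, and the untreated pair, with the doubted array, spanned them. Irf1 rose at 6 h by 1.80 ± 0.42 (adjusted p = 0.013), and its difference at 24 h was 1.05 ± 0.42 (adjusted p = 0.212). None of the 7 genes passed between 24 h and 6 h in the fit of both sets (limma, 5.45% of all genes), and 1, Irf5, had an unadjusted p under 0.05. On set 1 arrays alone Irf1 fell between 6 h and 24 h by 1.14 (adjusted p = 0.00509) and Irf5 by 0.81 (adjusted p = 0.0139). Without the doubted arrays Irf1 fell by 0.75 between them (adjusted p = 0.0104).

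Irf2, the counterpart of Irf1 and often a repressor, went in set 1 from 7.73 and 7.81 to 8.90 and 9.14 at 6 h and 8.56 and 8.53 at 24 h. In set 2 it read 8.44 and 7.32 untreated, 8.09 and 8.48 at 6 h, and 7.64 and 8.12 at 24 h, so the arrays overlapped there. Over both sets it rose at 6 h by 0.83 ± 0.26 (adjusted p = 0.0464), a call that was lost without the filter on dim probe sets (adjusted p = 0.0613) and in 19 of the 24 fits that left out 1 array. Irf5, the inflammatory member, went in set 1 from 9.09 and 9.08 to 10.70 and 10.97 and then 9.98 and 10.07, and rose at 6 h by 1.01 ± 0.22 (adjusted p = 0.00963). In set 2 the untreated pair of Irf5 read 9.41 and 8.64 and the 6 h pair 9.24 and 9.35, so the arrays overlapped there. The second probe set of Irf5, dimmer and above the array median on 12 of the 24 microglia arrays, gave 0.06 ± 0.20 at 6 h (adjusted p = 0.878 in the fit of every probe set), so the change of Irf5 rests on its leading probe set.

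Irf3, which is present before stimulation and is activated by phosphorylation, gave -0.14 ± 0.14 at 6 h (adjusted p = 0.512). Its arrays ran only from 8.64 to 8.98 in WT of set 1. Irf8, the myeloid factor, gave 0.09 ± 0.20 (adjusted p = 0.795), with set 1 arrays from 9.40 to 9.97. Without the doubted arrays Irf3 also passed at 6 h, at -0.31 (adjusted p = 0.0423). The WT responses did not pass as different between the sets for any of the 7 genes at 6 h or 24 h (limma, 0.791% and 0% of all genes). At both times 2 of them, Irf5 and Irf7, had an unadjusted p under 0.05, with Irf7 larger in set 1 by 4.01 ± 1.53 at 6 h (adjusted p = 0.207).

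**Figure D1:**
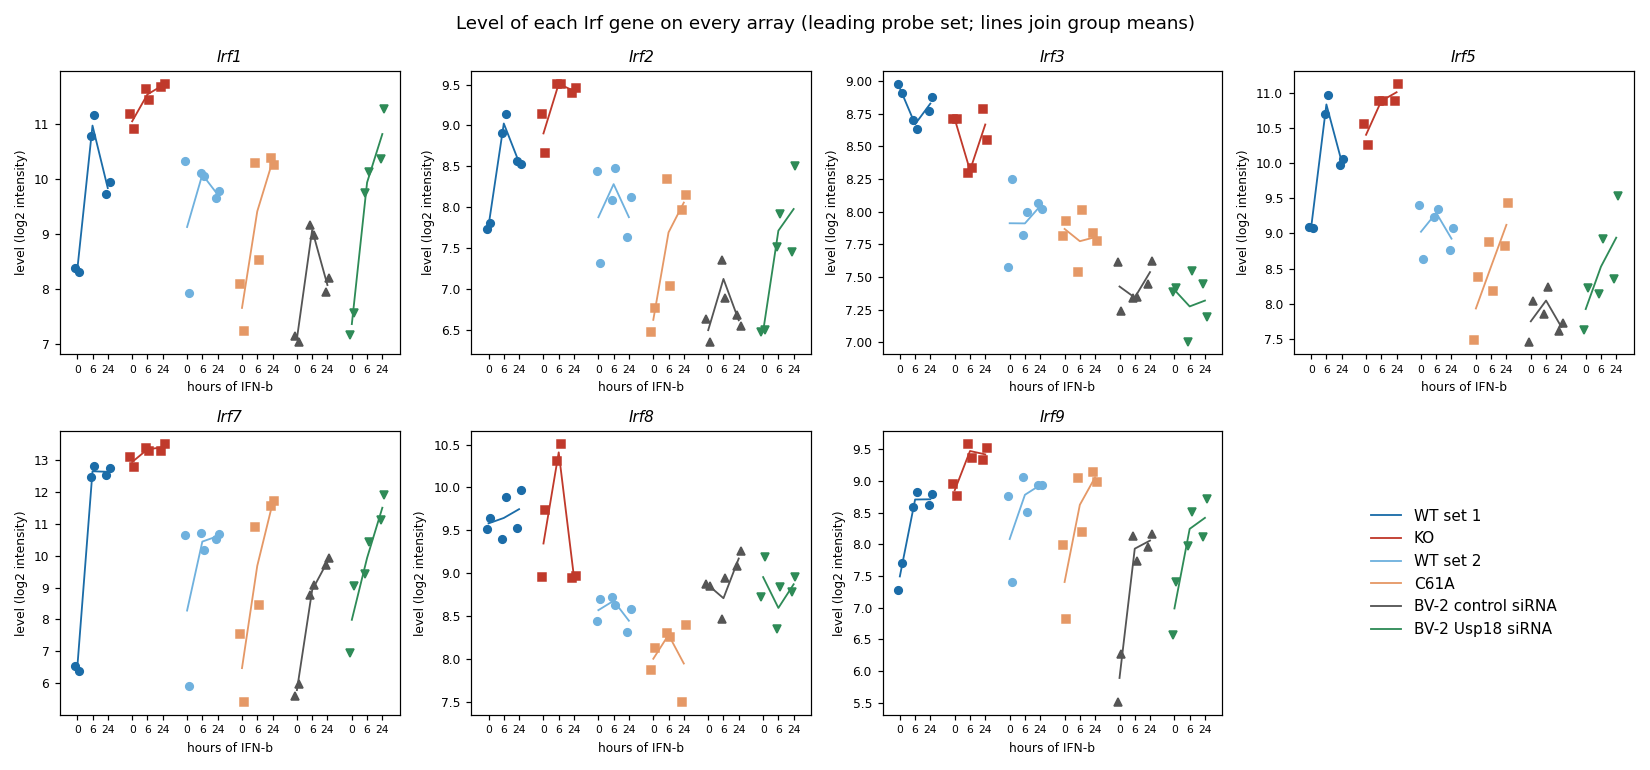
Level (log2 intensity) of the leading probe set of each Irf gene on every array, against hours of IFN-b, with a line through the group means of 2 arrays. Untreated KO arrays of Irf7 sit at 12.78 and 13.10 beside 6.39 and 6.55 in WT of set 1, and untreated WT of set 2 has 1 array at 10.66 and 1 at 5.90.

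Untreated KO microglia held 4 of the 7 genes above untreated WT of set 1, and 8% of all genes were higher. Irf7 was 88.5-fold higher if the values are log2, and Irf1, Irf5 and Irf9 were higher as well. Marker means of other cell types parted the same arrays, also after IFN-b. That of 4 monocyte and granulocyte markers was 4.59 to 5.63 in KO, above every WT array of set 1 (3.89 and 3.90 at 6 h), with Ccr2 and S100a9 under the array median on every array. That of 7 fibroblast and endothelial markers was 4.76 to 5.21 against 3.94 to 4.53, with Col1a1 and Cldn5 under the median on every array. That of 5 border macrophage markers was lower at 0 h, 4.40 and 5.69 against 6.77 and 7.26, with Cd163 and Lyve1 under the median on every array. The microglial marker mean was lower at 0 h too, 10.12 and 10.47 against 10.75 and 10.98. The part of these markers in the KO differences was not tested. This comparison shares its untreated WT arrays with the WT response of set 1, so the values are given side by side only.

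Irf7 read 13.10 and 12.78 on untreated KO arrays, 6.47 ± 1.08 above WT (adjusted p = 0.00203). They stood among or above the WT arrays of set 1 that had received IFN-b, which ran from 12.48 to 12.82. Irf1 read 11.19 and 10.93 and was higher by 2.72 ± 0.59 (adjusted p = 0.00851). Irf9 read 8.95 and 8.76 and was higher by 1.36 ± 0.41 (adjusted p = 0.0362).

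Irf5 read 10.55 and 10.26 and was higher by 1.32 ± 0.31 (adjusted p = 0.0122), and its second probe set did not pass (-0.23 ± 0.28, adjusted p = 0.726). Irf2 read 9.15 and 8.66, both above both WT arrays, and its difference of 1.13 ± 0.37 was at adjusted p = 0.0505. On set 1 arrays alone Irf2 passed as well (adjusted p = 0.00337), which made 5 genes. The 8% of all genes is from the fit of both sets, and the share on set 1 alone is not given here. Irf3 (8.71 and 8.71, a difference of -0.24 ± 0.19, adjusted p = 0.433) and Irf8 (8.95 and 9.74, -0.24 ± 0.29, adjusted p = 0.622) did not pass. The call of Irf7 held in all fits that left out 1 array, while that of Irf9 was lost without any one of the 4 arrays compared (adjusted p from 0.063 to 0.214). The call of Irf1 was lost without KO replicate 1 (adjusted p = 0.0877) or WT replicate 2 (0.0639), and that of Irf5 without KO replicate 1 (0.133) or either WT array (0.0652 and 0.0792). With no set term 2 of the 4 remained past the threshold, Irf1 and Irf7.

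IFN-b was then given to cells that already held these levels. In KO the Irf7 arrays read 13.39 and 13.29 at 6 h, a difference from 0 h of 0.40 ± 1.08 (adjusted p = 0.879). They read 13.30 and 13.51 at 24 h, a difference of 0.46 ± 1.08 (adjusted p = 0.873). The untreated KO arrays of Irf7 already read 13.10 and 12.78. Whether the array could show a further rise from there was not tested. Irf1 read 11.65 and 11.45 at 6 h (0.49 ± 0.59, adjusted p = 0.661). Irf8 was the only one of the 7 to rise at 6 h, where 2.89% of all genes rose. Its untreated arrays read 8.95 and 9.74, its 6 h arrays 10.31 and 10.51, and its 24 h arrays 8.94 and 8.96, so the 6 h pair stood above the rest and the 24 h pair was back at the lower untreated array. The rise was 1.06 ± 0.29 (adjusted p = 0.0353), and the second probe set of Irf8, which correlates with the first at 0.95 over 24 arrays, gave 0.92 ± 0.29 (adjusted p = 0.098 in the fit of every probe set). The rise of Irf8 lost its call without any one of those 4 arrays (adjusted p from 0.0849 to 0.174). At 24 h none of the 7 passed (limma, 3.97% of all genes), and 0 had an unadjusted p under 0.05. The microglial marker mean was 10.12 and 10.47 on untreated KO arrays, 9.77 and 10.05 at 6 h, and 9.72 and 9.74 at 24 h, and its part in the values of Irf8 was not tested.

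The difference between the KO and the WT response was tested as an interaction in set 1. For Irf7 the 6 h difference was -5.78 ± 1.53 (adjusted p = 0.0865) and the 24 h difference -5.70 ± 1.53 (adjusted p = 0.119). Each is the KO minus WT difference after IFN-b less that at 0 h. For Irf7 these were 0.69 at 6 h, 0.77 at 24 h and 6.47 at 0 h. The interaction of Irf7 thus mostly restates its untreated difference and is not separate evidence on the response. None of the 7 passed at 6 h or 24 h (limma, 1.14% and 0.716% of all genes), and 4 and 1 of them had an unadjusted p under 0.05. With the culture as a replicate block Irf7 passed at both times (adjusted p = 0.0252 and 0.0256). On set 1 arrays alone it passed too (adjusted p = 5.04e-06 and 1.07e-05), along with Irf1 (-2.15, adjusted p = 0.00158) and Irf5 (-1.27, adjusted p = 0.0192) at 6 h. The 1.14% and 0.716% of all genes are from the fit of both sets. The spread of Irf7 in the fit of both sets includes the untreated pair of set 2, whose SD was 3.37 against a median SD over groups of 0.23.

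**Figure D2:**
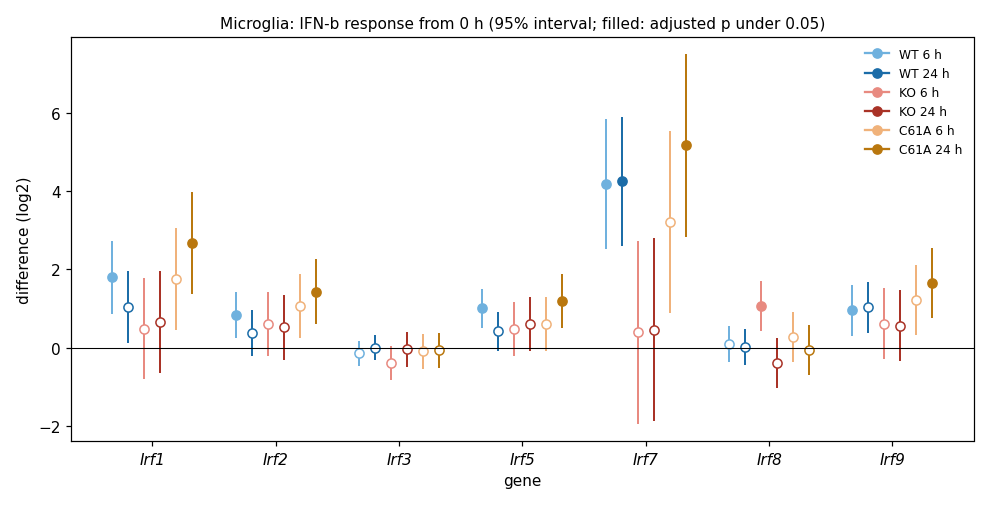
Change from 0 h (log2) after IFN-b in WT (mean of both sets), KO and C61A microglia at 6 h and 24 h, with unadjusted 95% intervals, filled where the adjusted p was under 0.05. Irf7 has 4.17 and 4.25 in WT and 0.40 and 0.46 in KO, and Irf8 is filled only in KO at 6 h.

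After 6 h of IFN-b none of the 7 genes passed between KO and WT of set 1 (limma, 8.32% of all genes), and 1 of them, Irf8, had an unadjusted p under 0.05. Irf8 was at 10.31 and 10.51 in KO and 9.40 and 9.89 in WT, a difference of 0.77 ± 0.29 (adjusted p = 0.113). Irf7 was at 13.39 and 13.29 against 12.48 and 12.82, with no overlap, and the difference of 0.69 ± 1.08 did not pass (adjusted p = 0.762, interval from -1.62 to 2.99). For Irf3 the leading probe set did not pass (-0.35 ± 0.19, adjusted p = 0.283), while its second brightest probe set fell by 0.75 ± 0.15 (adjusted p = 0.0171 in the fit of every probe set), with KO arrays at 6.48 and 6.68 and WT arrays at 7.25 and 7.41. The remaining 2 probe sets of Irf3 stayed under the array median on every array.

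At 24 h the genes parted again. Irf1 and Irf5 were higher in KO, 2 of the 7, beside 11.3% of all genes. Irf1 read 11.68 and 11.74 in KO and 9.73 and 9.95 in WT, a difference of 1.87 ± 0.59 (adjusted p = 0.0289). Thus Irf1 in WT had come down from its 6 h level while the KO arrays had not. Irf5 read 10.89 and 11.13 against 9.98 and 10.07 (0.99 ± 0.31, adjusted p = 0.0285), and with the culture as a random block its adjusted p was 0.0602. The second probe set of Irf5 had means of 6.33 in KO and 6.41 in WT, so the difference rests on the leading one. Both calls were lost when any one of the 4 arrays was left out (adjusted p from 0.0875 to 0.13 for Irf1 and from 0.0802 to 0.136 for Irf5).

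Irf8 read 8.94 and 8.96 in KO and 9.52 and 9.97 in WT at 24 h, lower on both KO arrays, with a difference of -0.79 ± 0.29 at adjusted p = 0.0511. Its second probe set gave -0.31 ± 0.29 (adjusted p = 0.579), with KO arrays at 8.73 and 8.87 and WT arrays at 8.83 and 9.39. The microglial marker mean was lower in KO at 24 h, 9.72 and 9.74 against 10.82 and 10.74. It was already lower in KO at 0 h, 10.12 and 10.47 against 10.75 and 10.98. It was also lower in KO at 6 h, 9.77 and 10.05 against 10.36 and 10.52, when Irf8 stood higher on both KO arrays. The monocyte and granulocyte mean was higher in KO at 24 h, 5.27 and 5.52 against 3.52 and 3.74. The part of these markers in the difference was not tested. Fewer cells of a type and less RNA per cell cannot be told apart in bulk samples. Irf2 (0.87 ± 0.37, adjusted p = 0.0909), Irf9 (0.71 ± 0.41, adjusted p = 0.214) and Irf7 (0.77 ± 1.08, adjusted p = 0.63) did not pass. On set 1 arrays alone these 3 passed beside Irf1 and Irf5 (adjusted p = 0.00812, 0.0235 and 0.015). The 11.3% of all genes is from the fit of both sets, and the share on set 1 alone is not given here.

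**Figure D3:**
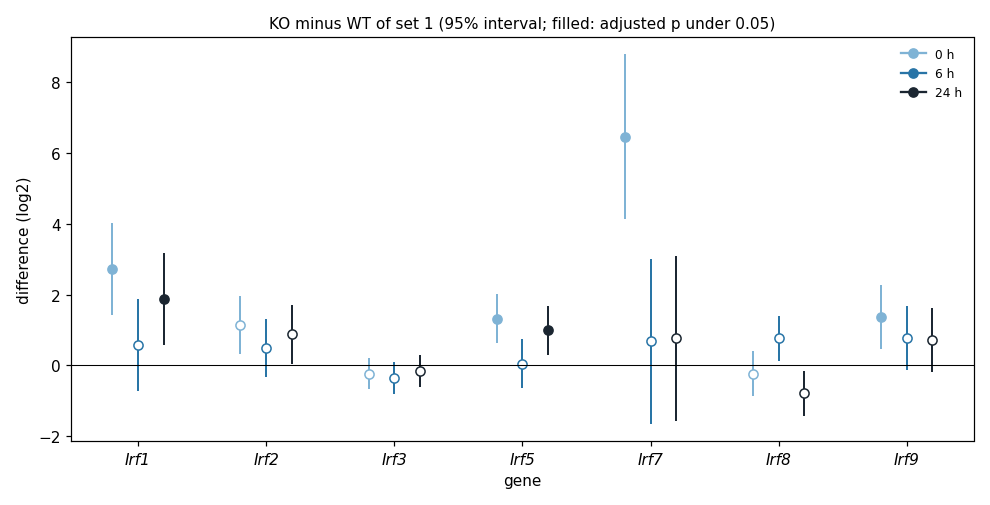
Difference between KO and WT microglia of set 1 (log2) for each Irf gene at 0 h, 6 h and 24 h, with unadjusted 95% intervals, filled where the adjusted p was under 0.05. Irf7 differs by 6.47 at 0 h and by 0.69 and 0.77 after IFN-b, and Irf1 differs by 2.72 and 1.87 at 0 h and 24 h.

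The C61A microglia did not have the high untreated levels of the KO. Irf7 read 7.53 and 5.41, Irf1 8.08 and 7.22, Irf9 7.99 and 6.82, Irf2 6.47 and 6.77, and Irf5 7.49 and 8.38 without IFN-b. All 5 lay lower in C61A than the mean of their own WT arrays, and none of the 7 genes passed between C61A and WT of set 2 at 0 h, 6 h or 24 h (limma, 0.0126%, 0.0126% and 0.0251% of all genes). At 0 h 3 of them (Irf1, Irf2 and Irf5) had an unadjusted p under 0.05, at 6 h 1 (Irf5), and at 24 h 0. The differences at 0 h were -1.48 ± 0.59 for Irf1, -1.25 ± 0.37 for Irf2, -1.09 ± 0.31 for Irf5 and -1.81 ± 1.08 for Irf7 (adjusted p = 1.00, 0.94, 0.94 and 1.00). Without the doubted untreated WT array the difference of Irf7 turned to 0.57 (adjusted p = 1.00), and without the other untreated WT array it was -4.19 (adjusted p = 0.0264). Either of these fits leaves 1 untreated WT array in set 2, which is assumed to vary like the other groups.

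IFN-b for 24 h raised 5 of the 7 genes in C61A arrays, Irf1, Irf2, Irf5, Irf7 and Irf9, the same genes that rose in WT at 6 h, and 5.46% of all genes rose. Irf7 reached 11.56 and 11.71, a rise of 5.16 ± 1.08 (adjusted p = 0.0134). Irf1 reached 10.38 and 10.27, a rise of 2.67 ± 0.59 (adjusted p = 0.0163). Irf9 reached 9.14 and 8.98, a rise of 1.65 ± 0.41 (adjusted p = 0.0246).

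Irf2 rose by 1.43 ± 0.37 (adjusted p = 0.0284) and Irf5 by 1.19 ± 0.31 (adjusted p = 0.0292). In these 5 genes both treated arrays stood above both untreated ones, a separation that was not counted over all genes. Leaving out either 24 h array ended all 5 calls (adjusted p from 0.0662 to 0.196), as leaving out untreated replicate 2 did for those of Irf1, Irf2, Irf7 and Irf9. Leaving out untreated replicate 1 ended those of Irf2 (1.28, adjusted p = 0.164) and Irf5 (0.74, adjusted p = 0.267). The second probe set of Irf5 gave 0.01 ± 0.28 (adjusted p = 0.989). None passed with set 2 arrays alone (adjusted p from 0.0809 to 0.106 for these 5) or with no set term. Irf3 (-0.06 ± 0.19, adjusted p = 0.867) and Irf8 (-0.06 ± 0.29, adjusted p = 0.923) did not pass.

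At 6 h the C61A replicates differed. Irf7 read 10.91 and 8.45, Irf1 10.29 and 8.54, Irf2 8.34 and 7.04 and Irf9 9.05 and 8.20, each with the doubted replicate 2 lower. None of the 7 passed (limma, 0.0503% of all genes), and 4 had an unadjusted p under 0.05. Without the doubted arrays the 6 h difference of Irf7 was 4.44, with a single C61A array left at 6 h that is assumed to vary like the other groups. The C61A response did not pass as different from the WT response for any of the 7 at 6 h or 24 h (limma, 0% of all genes both times), with 0 and 3 under an unadjusted p of 0.05. The astrocyte marker mean was 9.04 and 7.13 on the untreated C61A arrays, 8.58 and 5.89 at 6 h and 8.67 and 6.65 at 24 h, so it parted the replicates rather than the times.

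The KO effect and the C61A effect, each against WT of its own set, were compared directly. At 0 h they differed for 5 of the 7 genes, all larger in KO, as did 7.55% of all genes in that direction. Irf7 differed by 8.27 ± 1.53 (adjusted p = 0.00514), and Irf5 by 2.41 ± 0.44 (adjusted p = 0.00502). Without the doubted arrays Irf7 differed by 5.89 (adjusted p = 0.000296). Irf9 then had 1.36 and did not pass (adjusted p = 0.118), which left 4. At 6 h and 24 h none of the 7 passed (limma, 0.817% and 3.1% of all genes), and 1 and 0 had an unadjusted p under 0.05. KO and C61A arrays lie in different sets, so the WT arrays carry the adjustment for set.

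BV-2 cells with the control siRNA answered IFN-b with 3 of the 7 genes. At 6 h Irf1 and Irf9 rose, 2 of the 7, where 0.991% of all 7163 genes rose, and at 24 h Irf7 and Irf9 rose, again 2, where 0.503% of all genes rose. Irf9 went from 5.51 and 6.27 to 8.13 and 7.73 and then 7.95 and 8.17, rises of 2.04 ± 0.36 (adjusted p = 0.038) and 2.17 ± 0.36 (adjusted p = 0.0438). Irf7 went from 5.58 and 5.98 to 8.76 and 9.08 and then 9.70 and 9.92, a difference of 3.14 ± 0.60 at 6 h (adjusted p = 0.0503) and a rise of 4.03 ± 0.60 at 24 h (adjusted p = 0.024). For both genes every treated array stood above every untreated one.

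Irf1 went from 7.14 and 7.04 to 9.16 and 8.99 at 6 h and then 7.94 and 8.21 at 24 h. Its rise at 6 h was 1.99 ± 0.29 (adjusted p = 0.017) and its 24 h difference 0.98 ± 0.29 (adjusted p = 0.271). The 3 times did not overlap, with 6 h highest, as in WT microglia of set 1. Irf2, Irf3, Irf5 and Irf8 did not pass at either time, with Irf5 at 0.29 ± 0.41 and -0.08 ± 0.41. The calls at 6 h and 24 h were lost without any one of the arrays compared.

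BV-2 cells with the Usp18 siRNA raised 1 of the 7 at 6 h, Irf1, and 4 at 24 h, Irf1, Irf2, Irf7 and Irf9, where 1.02% and 6.62% of all genes rose. With the culture as a fixed replicate block Irf2, Irf7 and Irf9 passed at 6 h as well (adjusted p = 0.0203, 0.0103 and 0.0233), which made 4. So they did with the culture as a random block and with the replicate number as a block. These fits passed 1061, 1199 and 746 of 7163 genes in either direction, against 141 without a block. Irf1 went from 7.15 and 7.56 to 9.75 and 10.13 at 6 h and on to 10.37 and 11.28 at 24 h, rises of 2.58 ± 0.29 (adjusted p = 0.0137) and 3.47 ± 0.29 (adjusted p = 0.0005). Irf2 went from 6.47 and 6.49 to 7.51 and 7.91 and then 7.46 and 8.50, with a 24 h rise of 1.50 ± 0.32 (adjusted p = 0.0189). In both genes the treated arrays all lay above the untreated ones.

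Irf7 went from 6.94 and 9.04 to 9.43 and 10.43 and then 11.11 and 11.90, with a 24 h rise of 3.52 ± 0.60 (adjusted p = 0.00999). Irf9 went from 6.56 and 7.41 to 7.97 and 8.52 and then 8.12 and 8.71 (24 h: 1.43 ± 0.36, adjusted p = 0.0314). Replicate 2 was the higher one for Irf7 and Irf9 at every time. The doubted 6 h array is that of replicate 2, and without it no gene of the 7 passed at 6 h (Irf1 2.40, adjusted p = 0.079), nor did Irf1 without untreated replicate 1 (2.38, adjusted p = 0.106). Without untreated replicate 1 the 24 h differences of Irf7, Irf9 and Irf2 were 2.47, 1.01 and 1.48, and all these calls were lost. Without 24 h replicate 2 they were 3.12, 1.14 and 0.98, and all these calls were lost again. The call of Irf2 was also lost without untreated replicate 2 (1.51), and that of Irf9 without either control siRNA array of 24 h.

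Between the siRNAs, the plainest difference was that of Irf1 at 24 h. At that time Irf1 and Irf2 were higher with the Usp18 siRNA, 2 of the 7, beside 3.07% of all genes. Irf1 stood at 10.37 and 11.28 against 7.94 and 8.21, 2.75 ± 0.29 higher (adjusted p = 0.00401), or 6.75-fold if the values are log2. Irf2 stood at 7.46 and 8.50 against 6.69 and 6.55, 1.36 ± 0.32 higher (adjusted p = 0.0456).

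Irf5 at 8.35 and 9.53 against 7.62 and 7.72 (1.27 ± 0.41, adjusted p = 0.0908) and Irf7 at 11.11 and 11.90 against 9.70 and 9.92 (1.69 ± 0.60, adjusted p = 0.108) did not overlap between the siRNAs and did not pass. The second probe set of Irf5 had means of 5.43 with the Usp18 siRNA and 5.46 with the control. Arrays of the same number deviated together across the siRNAs at each time (correlations from 0.21 to 0.45). With the replicate number as a block Irf5 and Irf7 passed too (adjusted p = 0.0114 and 0.0237), which made 4. That block passed 1456 of 7163 genes in either direction, against 383 without it. Irf9 (0.36 ± 0.36, adjusted p = 0.529), Irf8 (-0.30 ± 0.24, adjusted p = 0.42) and Irf3 (-0.22 ± 0.21, adjusted p = 0.509) did not pass. The call of Irf1 was lost without control replicate 1 (2.62, adjusted p = 0.0686). That of Irf2 was lost in 9 of the 12 fits that left out 1 array, and without Usp18 siRNA replicate 2 it was 0.84 (adjusted p = 0.277). The microglial marker mean was 7.57 and 7.91 with the Usp18 siRNA and 7.10 and 7.49 with the control at 24 h. The monocyte and granulocyte mean was 5.52 and 4.68 against 4.30 and 4.16, without overlap, with Ccr2 and S100a9 under the median on every array. The part of these markers was not tested.

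None of the 7 genes passed between the siRNAs at 0 h or 6 h (limma, 0% of all genes both times), and 2 and 1 of them had an unadjusted p under 0.05. At 0 h Irf7 read 6.94 and 9.04 against 5.58 and 5.98, a difference of 2.21 ± 0.60 (adjusted p = 1.00, interval from 0.85 to 3.56). At 6 h Irf1 read 9.75 and 10.13 against 9.16 and 8.99, a difference of 0.87 ± 0.29 (adjusted p = 0.28). The responses did not pass as different between the siRNAs for any of the 7 at 6 h or 24 h (limma, 0% and 0.0279% of all genes), with 0 and 2 under an unadjusted p of 0.05. For Irf1 at 24 h the difference of responses was 2.49 ± 0.41 (adjusted p = 0.147), and with the culture as a replicate block it passed (adjusted p = 0.012).

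**Figure D4:**
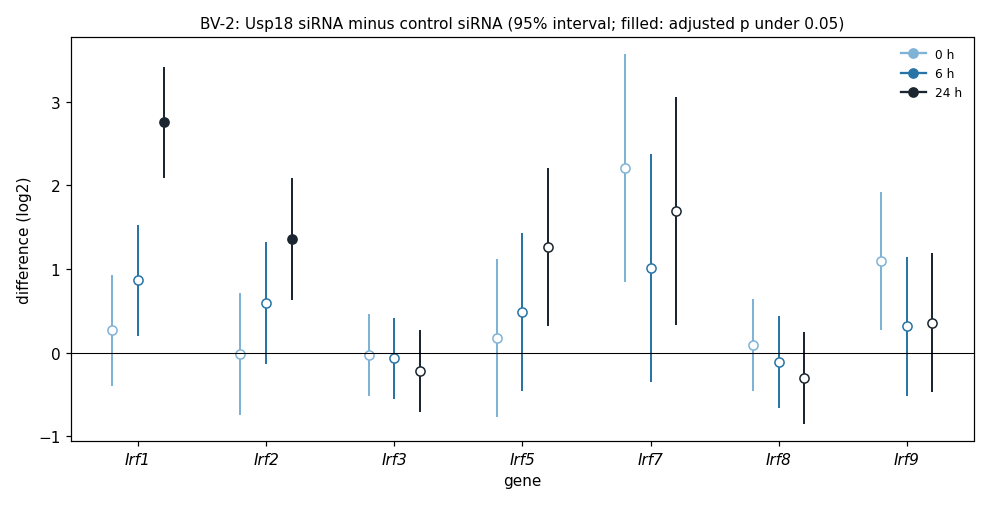
Difference between Usp18 siRNA and control siRNA in BV-2 cells (log2) for each Irf gene at 0 h, 6 h and 24 h of IFN-b, with unadjusted 95% intervals, filled where the adjusted p was under 0.05. Irf1 differs by 0.27, 0.87 and 2.75 at the 3 times and is filled at 24 h only, together with Irf2.

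Over all 18 groups, the group means of Irf7 spanned 7.62, from 5.78 in untreated BV-2 cells with the control siRNA to 13.40 in KO at 24 h. Irf1 had the same lowest and highest groups, with means of 7.09 and 11.71. The means of Irf9 ran from 5.89 in that lowest group to 9.47 in KO at 6 h, those of Irf2 from 6.48 in untreated BV-2 cells with the Usp18 siRNA to 9.51 in KO at 6 h, and those of Irf5 from 7.67 in the control BV-2 cells at 24 h to 11.01 in KO at 24 h. Irf8 had its lowest mean in C61A at 24 h (7.95) and its highest in KO at 6 h (10.41). Irf3 had the narrowest span of the 7 leading probe sets, 1.67, with WT of set 1 untreated highest (8.95).

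In that order of means the arrays of most neighbours overlapped. Neighbours in such an order are the closest groups, and the overlap was not counted over all genes, so the counts are only a description. Of the 17 neighbouring pairs of groups, the arrays overlapped in 11 for Irf1, 12 for Irf2, 11 for Irf3, 14 for Irf5, 13 for Irf7, 13 for Irf8 and 13 for Irf9. The group with the largest SD was untreated WT of set 2 for Irf1 (1.72), Irf3 (0.47), Irf7 (3.37) and Irf9 (0.96).

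Across the 12 microglia group means, which share arrays and sets, the leading probe sets of Irf1 and Irf7 correlated at 0.94, those of Irf1 and Irf9 at 0.92, those of Irf1 and Irf2 at 0.94 and those of Irf2 and Irf5 at 0.97. Irf3 correlated with Irf8 at 0.76, with Irf5 at 0.65, with Irf2 at 0.53, with Irf7 at 0.32, with Irf1 at 0.30 and with Irf9 at 0.04. Irf8 correlated with Irf5 at 0.75, with Irf2 at 0.71, with Irf1 at 0.47, with Irf7 at 0.45 and with Irf9 at 0.26. The 3 genes whose means were most like each member, by Pearson correlation over the same 12 means, were Daxx, Trim26 and Slc25a22 for Irf1 (0.99 to 1.00) and Psmb9, Epsti1 and Sp100 for Irf7 (0.99 each). They were Slamf7, Trim21 and Trim34a for Irf9 (all 0.98), and Tmem229b, AW112010 and Casp4 for Irf2 (0.98 to 0.99). For Irf5 they were Eif4e3, Lipe and Tlr6 (0.98 to 0.99), for Irf3 Dus3l, Tspan14 and Ring1 (0.98 to 0.99), and for Irf8 Isy1, Nfatc1 and Pfpl (0.95 to 0.96).

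The genes around the IRFs were read from lists of known components and targets. For their counts, 7.59% of all genes rose and 622 of 7960 fell in WT at 6 h. In untreated KO 8% were higher, in C61A at 24 h 5.46% rose, and between the siRNAs at 24 h 3.07% were higher. Upstream, the receptor and JAK-STAT list had 11 tested genes. In WT at 6 h 2 rose, Stat2, the ISGF3 subunit, by 3.03 ± 0.62 (adjusted p = 0.00742) and the kinase Tyk2 by 0.94 ± 0.20 (adjusted p = 0.00889). In untreated KO against WT 3 were higher, Stat2 by 4.38 ± 0.88 (adjusted p = 0.00551), Socs1, a feedback inhibitor of the JAKs, by 3.56 ± 0.95 (adjusted p = 0.0215) and Tyk2 by 1.49 ± 0.29 (adjusted p = 0.00448). At 24 h, when 11.3% of all genes were higher in KO and 17.7% lower, this list had 5 higher and 1 lower, Ifnar2, a receptor chain, by -0.70 ± 0.18 (adjusted p = 0.00934).

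Among 10 tested kinases and adaptors that activate IRFs, 3 rose and 1 fell in WT at 6 h, Azi2, Myd88 and Ikbke against Irak1, and 3 were higher in untreated KO. At 24 h the higher ones were near the share of all genes, 2 of 10, Tbk1, the kinase of IRF3 and IRF7 (0.81 ± 0.22, adjusted p = 0.014), and Tank. Another 3 were lower, where 17.7% of all genes were, among them the adaptor Mavs (-1.11 ± 0.31, adjusted p = 0.0157) and the kinase Ikbke (-0.91 ± 0.27, adjusted p = 0.0228). Of 13 tested partners and regulators 3 rose in WT at 6 h and 4 were higher in untreated KO, led both times by Batf2, a partner of IRF1 (2.17 ± 0.35, adjusted p = 0.00252, and 3.41 ± 0.50, adjusted p = 0.000838). Of 9 interferon genes on the array only Ifnb1 passed the filter in microglia. Ifnb1 was higher in KO than in WT at 0 h by 1.07 ± 0.25 (adjusted p = 0.0115), at 6 h by 1.92 ± 0.25 (adjusted p = 0.00209) and at 24 h by 1.22 ± 0.25 (adjusted p = 0.00277). The filter asks for 2 arrays above the median, so KO arrays alone could have let Ifnb1 in. Its levels are not given here, so these differences are a description.

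Downstream, all 14 tested targets of ISGF3 rose in WT at 6 h (median change 3.61 against -0.12 over all genes). In untreated KO 13 of 14 were higher (median 4.41 against -0.10), led by the antiviral GTPase Mx1 at 7.83 ± 1.71 (adjusted p = 0.00849). The remaining target was Usp18 (-1.75), the gene knocked out in KO. In C61A at 24 h 13 of 14 rose. Of 12 tested targets of IRF1, 10 rose in WT at 6 h, 9 were higher in untreated KO and 11 rose in C61A at 24 h, with the GTPase Gbp2 7.34 ± 0.98 higher in untreated KO (adjusted p = 0.000519). The lists were drawn up with earlier results of these data known, so their counts are a description.

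At 24 h the 2 target lists gave unlike counts in KO against WT. A count turns on the spread of each gene, which in this fit includes the untreated WT pair of set 2. Of the IRF1 targets 6 of 12 were higher, among them Il15ra, a receptor chain for interleukin 15, at 3.43 ± 0.53 (adjusted p = 0.000601). Of the ISGF3 targets 1 of 14 was higher (Oasl1, 2.58 ± 0.77, adjusted p = 0.0221). Another 1 was lower, Usp18, the gene knocked out in KO. Between the siRNAs in BV-2 cells at 24 h, 8 of 12 IRF1 targets were higher (median 2.09 against -0.08 over all genes) and 2 of 14 ISGF3 targets (median 1.24). Tap2, a peptide transporter of antigen presentation, was 1.75 ± 0.16 higher (adjusted p = 0.00202), and Il15, a cytokine, 2.59 ± 0.30 higher (adjusted p = 0.00537). Whether the lists differ from each other was not tested.

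Of 5 tested targets of IRF5, 3 rose in WT at 6 h (7.59% of all genes), with Tnf, an inflammatory cytokine, at 1.65 ± 0.28 (adjusted p = 0.00314). In KO at 24 h 3 were higher (11.3% of all genes), with Il6 at 5.04 ± 1.03 (adjusted p = 0.00291). In BV-2 cells at 24 h, 3 were higher with the Usp18 siRNA (3.07% of all genes), and Il6 led again at 5.91 ± 0.91 (adjusted p = 0.0164). Of 12 tested myeloid targets of IRF8, 2 were higher and 2 lower in KO at 24 h, counts near the shares of all genes (11.3% and 17.7%). Klf4, a myeloid transcription factor, was 4.27 ± 0.54 higher (adjusted p = 0.000198) and Cx3cr1, the fractalkine receptor of microglia, 3.47 lower (a difference of -3.47 ± 0.50, adjusted p = 0.000394). Irf4, the other member of the family on the array, passed the filter in BV-2 cells only and did not pass between the siRNAs at 24 h.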

How the data were processed

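The deposited log2 intensities were used as the authors gave them. Their range, 1.66 to 14.0, is the ground for calling them log2, and the submitters' processing notes name affy, with its version and the normalization not given in the sources used here. Per the labels' protocols, a one-cycle kit made the biotin-labelled target from total RNA. Array medians ran from 5.59 to 5.83, and the 2 arrays a group limit the precision. Of 22690 probe sets, 20393 have 1 gene in the platform annotation, 691 have several and 1606 are not listed. Probe sets not above the median of the array on 2 or more fitted arrays were dropped. The brightest remaining probe set stood for its gene (7960 genes in microglia, 7163 in BV-2).

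Group means were fitted with limma 3.58.1 in R 4.3.3, with empirical Bayes moderation, in 24 microglia arrays (12 residual degrees of freedom) and 12 BV-2 arrays (6). A WT response is the mean over both sets. The highest correlation between 2 arrays was 0.995. Promoters came from RefSeq (GRCm38.p6), and figures from Python 3.11.15 with matplotlib 3.10.9. The script was tested on simulated data.

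Replicate deviations correlated across times at 0.40 to 0.67 in WT of set 1 and at 0.19 to 0.36 in set 2, so WT numbers were taken to mark cultures followed over time. In KO, C61A and BV-2 they were 0.26 to 0.81, between the siRNAs 0.21 to 0.45, between C61A and WT of set 2 -0.20 to 0.24, and between KO and WT of set 1 -0.01 to 0.05.

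The 7 genes were all reported, with up to 4 called genes per list, direction and comparison, of which the text names some, and the 3 genes most like each member. The members and lists were chosen with earlier results of these data known.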

Additional observations from a re-analysis of the deposited data

Results flagged for a closer look

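The untreated KO effect differed from the untreated C61A effect, by a test of the difference between them, for 5 of the 7 genes. The difference was 4.19 ± 0.84 for Irf1 (adjusted p = 0.00799), 2.39 ± 0.53 for Irf2 (adjusted p = 0.0123), 2.41 ± 0.44 for Irf5 (adjusted p = 0.00502), 8.27 ± 1.53 for Irf7 (adjusted p = 0.00514) and 2.04 ± 0.58 for Irf9 (adjusted p = 0.0354). In each case KO lay above its WT arrays and C61A below its own on average, and the doubted untreated WT array of set 2 enters all 5. Against the other untreated WT array alone, the C61A means of Irf7 (6.47 against 5.90) and Irf9 (7.41 against 7.40) did not lie below. Those of Irf1, Irf2 and Irf5 still did. Without the doubted arrays the differences were 2.98, 1.83, 2.03, 5.89 and 1.36, and that of Irf9 no longer passed (adjusted p = 0.118). Groups of 2 arrays were not searched for single outlying arrays.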

How the results depend on the processing

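Counts are of the 7 genes that passed. Without the filter, and with every probe set as a feature, WT at 6 h gave 3, BV-2 control at 6 h and 24 h 1 each, and the siRNAs at 24 h 1, and every probe set gave KO at 6 h 0. One fit of 36 arrays gave BV-2 control 1 at 6 h and 1 at 24 h, and the KO minus WT response 1 at 6 h. The fixed, random and number replicate blocks each gave 2 for WT at 24 h, 4 for BV-2 Usp18 siRNA at 6 h, and 1 for the KO minus WT response at 6 h, for the same at 24 h and for the difference of BV-2 responses at 24 h. In each of these comparisons the blocks also passed more of all genes, such as 1338, 995 and 410 against 206 for WT at 24 h. The random block also gave KO against WT at 24 h 1 and the set 1 minus set 2 response at 6 h 1, and the number block KO against WT at 6 h 1 and the siRNAs at 24 h 4. No set term gave 0 for WT at 6 h and 24 h, KO at 6 h and C61A at 24 h, 2 for KO against WT at 0 h, and 5 and 2 for KO minus C61A at 6 h and 24 h. An additive set gave 2 for KO against WT at 0 h and 3 for KO minus C61A at 6 h. Set 1 alone gave WT 5 at 24 h and 2 for 24 h against 6 h, KO against WT 1 at 6 h and 5 at 24 h, and the KO minus WT response 3 and 1. For WT at 6 h that fit passed 1851 of 7528 genes, against 1226 of 7960 in the fit of both sets. Set 2 alone gave 0 for WT at 6 h and 24 h and for C61A at 24 h. Without the 3 doubted arrays there were 4 for WT at 24 h, 1 for WT 24 h against 6 h, 4 for C61A at 6 h, 0 for BV-2 Usp18 siRNA at 6 h, 2 and 1 for the KO minus WT response, and 1 for KO minus C61A at 24 h. Leaving out 1 array gave WT 2 to 5 at 6 h and 1 to 3 at 24 h, KO 0 to 1 at 6 h, C61A 0 to 5 at 24 h, KO against WT 1 to 5 at 0 h and 0 to 3 at 24 h, C61A against WT 0 to 4 at 0 h, BV-2 control 0 to 3 and 0 to 2, BV-2 Usp18 siRNA 0 to 2 and 1 to 5, the siRNAs at 24 h 0 to 3, the KO minus WT response 0 to 1 at both times, the C61A minus WT response at 24 h 0 to 2, the set 1 minus set 2 response 0 to 3 and 0 to 1, the difference of BV-2 responses at 24 h 0 to 2 and KO minus C61A at 0 h 3 to 5. The sign turned for Irf7 in C61A against WT at 0 h without WT set 2 replicate 1, alone or with the other doubted arrays (fits without 1 array: -4.19 to 0.57), and for Irf8 in KO at 24 h without untreated KO replicate 2 (-0.78 to 0.00029). Beyond what fewer arrays or genes explain, the cause was not tested.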
